A study of Mus musculus with 12 samples.

Results

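The miR-199 and miR-214 miRNAs were followed through mouse skin and ultraviolet-induced skin carcinoma. They were taken by name as 4 rows of a table of 1251 miRNAs: mmu-mir-199a-5p, mmu-mir-199b-5p, mmu-mir-199a-3p and mmu-mir-214-3p, written below as miR-199a-5p and so on. All 4 were far above the lowest recorded level in every library, and all 4 were among the 544 miRNAs tested. The row of miR-199b-3p held the same value as that of miR-199a-3p in all 12 libraries, so 1 row stands for both. miR-214-5p, the other arm of the miR-214 hairpin, is given beside them.

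The study asked which miRNAs TAp63 regulates in cutaneous squamous cell carcinoma (SCC). TAp63 denotes isoforms of p63, a relative of the transcription factor p53, with a full transactivation domain. The 4 groups were TAp63-/- SCC (n = 4), wild-type (WT) SCC (n = 2), TAp63-/- dorsal skin (n = 3) and WT dorsal skin (n = 3), all from C57Bl6 mice. TAp63-/- is called knockout (KO) below. The skin donors were 4 weeks old and untreated, while the tumour donors were more than 35 weeks old and had been exposed to UVR at 2.5 kJ/m2 on 3 occasions a week. Tumour, age and irradiation therefore cannot be told apart in any comparison of SCC with skin. Each sample has its own source name, but separate mice are not stated, so the p-values cover sample-to-sample spread, some of which could be technical. The replicate numbers follow the order of deposition and pair nothing.

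Each miRNA hairpin yields a 5p and a 3p arm, and an arm loaded into Argonaute selects its targets mainly through its seed, bases 2 to 8. The mir-199a-2 and mir-214 hairpins lie in 1 noncoding RNA, Dnm3os, which is transcribed from the opposite strand of the dynamin gene Dnm3. In the mouse embryo this transcript is known from mesenchyme, where the transcription factor Twist1 activates it, and its loss disturbs skeletal growth. In adult tissue the family is best known from fibroblasts and muscle and is commonly used as a sign of stroma. The table holds miRNAs and no messenger RNA, so fibroblast genes such as the collagens were not measured here and the source cell of these miRNAs was not tested.

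The mature sequences show which arms can be told apart in small RNA reads. They are from RefSeq on GRCm38.p6, the assembly that mm10 names, are written 5′ to 3′, and have the seed in capitals.

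miR-199a-5p: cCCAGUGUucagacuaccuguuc

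miR-199a-3p: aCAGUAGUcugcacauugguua

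miR-199b-3p: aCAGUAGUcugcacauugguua

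miR-214-3p: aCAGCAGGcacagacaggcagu

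miR-214-5p: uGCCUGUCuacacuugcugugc

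miR-199a-3p and miR-199b-3p are the same 22 bases and share the seed CAGUAGU. No other mature miRNA of the RefSeq set has that seed. miR-214-3p has the seed CAGCAGG, which matches that of miR-199a-3p at 5 of 7 positions. It is shared with miR-761, which was at the lowest recorded level in all 12 libraries. The seeds of miR-199a-5p and miR-214-5p each occurred in 1 mature miRNA of the RefSeq set, which has no entry for miR-199b-5p.

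The hairpins show where the arms come from, and their capitals mark the mature arms of the RefSeq set, with 1 exception. In the mir-199b hairpin the first stretch in capitals is not an annotated arm but the stretch most like miR-199a-5p.

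mir-199a-1: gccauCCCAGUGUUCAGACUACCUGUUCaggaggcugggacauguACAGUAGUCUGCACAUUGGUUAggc

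mir-199a-2: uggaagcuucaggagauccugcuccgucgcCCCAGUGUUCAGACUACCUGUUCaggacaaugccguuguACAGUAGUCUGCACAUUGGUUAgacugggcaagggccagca

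mir-199b: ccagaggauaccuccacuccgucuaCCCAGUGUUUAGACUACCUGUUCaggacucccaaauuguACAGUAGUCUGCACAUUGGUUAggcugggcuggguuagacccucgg

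mir-214: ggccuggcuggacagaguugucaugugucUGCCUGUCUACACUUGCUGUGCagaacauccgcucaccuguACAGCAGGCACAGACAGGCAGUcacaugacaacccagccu

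The 3p sequence of the miR-199 family stands in 3 hairpins, so its value cannot be assigned to 1 locus. miR-199a-5p stands in 2 of them. The stretch of the mir-199b hairpin most like miR-199a-5p differs from it at 1 of 23 bases, C10U, counted from the 5′ end of miR-199a-5p. That position lies outside the seed, so this stretch of the mir-199b hairpin holds the seed of miR-199a-5p. The table has separate 5p rows for miR-199a and miR-199b, while the 3p row pools all 3 hairpins.

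In mm10, mir-199a-2 lies on the plus strand at chr1:162217814-162217923 and mir-214 at chr1:162223368-162223477, with 5444 bases between them. GENCODE M21 places both in an exon of Dnm3os and, on the opposite strand, in an intron of Dnm3. The mir-199a-1 hairpin lies on the minus strand at chr9:21496495-21496564, opposite an intron of Dnm2. The mir-199b hairpin lies on the plus strand at chr2:32318460-32318569, opposite an intron of Dnm1. Each hairpin thus faces an intron of a dynamin gene.

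Values are the log2 levels that the authors deposited, which are quantile normalized between libraries and cannot fall below 3.32, the log2 of 10. Depth is unknown, since read counts were not used here. The nearest measure is the number of miRNAs above that floor, 370 to 545 per library. The 4 members kept 1 order in all 12 libraries, with miR-199a-3p highest, then miR-199a-5p, miR-214-3p and miR-199b-5p. The printed mature arms are 22 or 23 bases long, and capture in a library can differ by sequence, which was not tested. miR-199a-3p ranked 21 to 31 among all rows of a library, and miR-199b-5p ranked 113 to 202.

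Every SCC library had less of both miR-199 5p arms than every skin library, while the levels of the 3p arm of the same hairpins overlapped between SCC and skin. Averaged over the genotypes, miR-199b-5p was 2.94-fold lower and miR-199a-5p 2.20-fold lower. miR-214-5p was 1.86-fold lower. miR-214-3p was 1.33-fold lower and did not pass the test, and miR-199a-3p had a ratio of 0.993. Of the 4 members, 2 fell and none rose in this comparison, which changed 41.9% of the 544 tested miRNAs at an adjusted p under 0.05. Of all 544, 21.5% fell and 20.4% rose, so a fall by itself is common in these tumours.

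**Figure D1:**
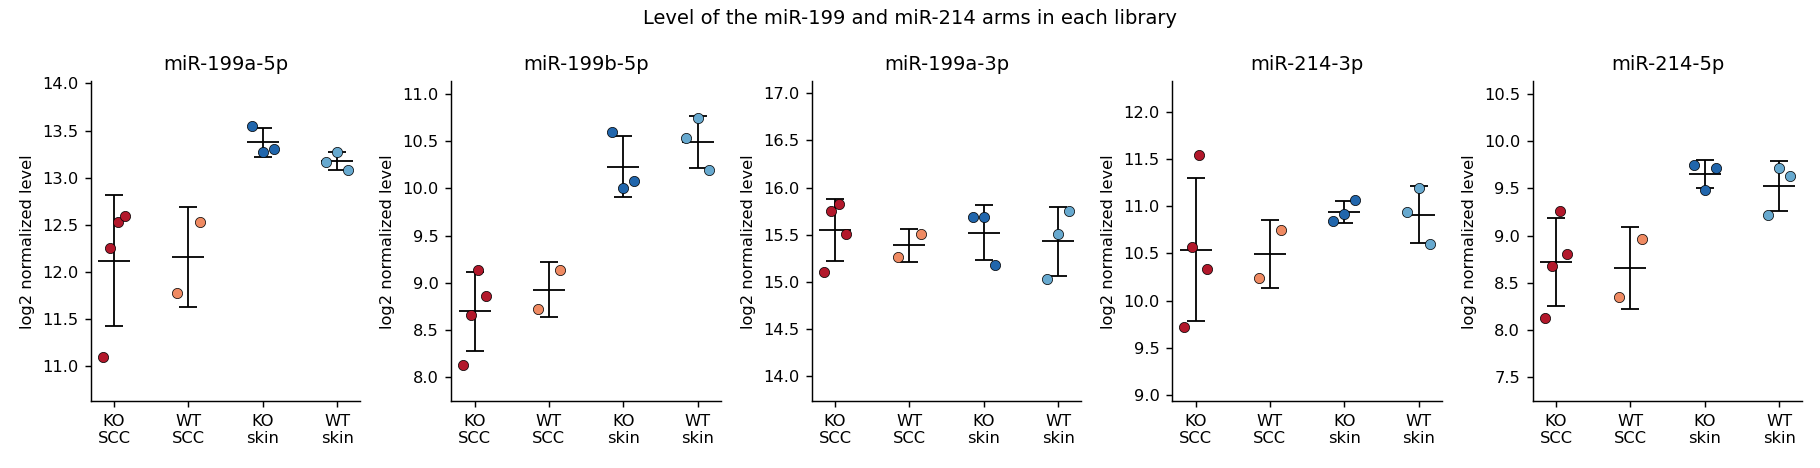
Level of each arm (y axis, log2 normalized level; every panel spans the same range) in each library (points) of the 4 groups (x axis), with the group mean and SD as bars. For miR-199a-5p and miR-199b-5p all 6 SCC libraries lie below all 6 skin libraries, while for miR-199a-3p the SCC and skin libraries span overlapping levels.

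miR-199a-5p, which represses caveolin-1 in human lung fibroblasts, had log2 levels of 11.10, 12.25, 12.53 and 12.59 in KO SCC and 11.78 and 12.53 in WT SCC. In skin it had 13.55, 13.27 and 13.30 in KO and 13.17, 13.27 and 13.08 in WT mice. All 6 tumours lay below all 6 skin libraries, which held for 11.6% of tested miRNAs, while for 10.5% all tumours lay above. The skin libraries were close together and the tumours were spread, with SDs of 0.69 in KO SCC, 0.53 in WT SCC, 0.15 in KO skin and 0.10 in WT skin (n = 4, 2, 3 and 3).

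The averaged difference of miR-199a-5p was -1.14 ± 0.27 (log2, SE; limma, Benjamini-Hochberg adjusted p = 0.00621). In KO mice it fell by 1.26 ± 0.35 (adjusted p = 0.0164, limma), where 34.2% of tested miRNAs passed, 16.0% higher and 18.2% lower. This KO call ended without KO skin replicate 1 (adjusted p = 0.0639, limma). In WT mice the difference was -1.02 ± 0.41 and did not pass (adjusted p = 0.114, limma), where 18.2% of tested miRNAs passed, 8.82% higher and 9.38% lower. It did pass with the WT groups fitted alone (adjusted p = 0.0460, limma) or without KO SCC replicate 1 (adjusted p = 0.0234, limma). Without WT SCC replicate 1 it was -0.64 (adjusted p = 0.573, limma). The difference between the tumour effects of the genotypes, KO minus WT, was -0.24 ± 0.54 (adjusted p = 0.957, limma), so no difference between genotypes was shown.

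miR-199b-5p, the least abundant member, had log2 levels of 8.13, 8.66, 9.13 and 8.86 in KO SCC and 8.72 and 9.13 in WT SCC. In skin it had 10.60, 10.01 and 10.08 in KO and 10.54, 10.75 and 10.20 in WT mice. Again every tumour lay below every skin library. The averaged difference was -1.55 ± 0.23 (adjusted p = 3.2e-04, limma). It fell by 1.54 ± 0.29 in KO mice (adjusted p = 0.00241, limma) and by 1.57 ± 0.35 in WT mice (adjusted p = 0.00924, limma). The WT call ended without WT SCC replicate 1 (adjusted p = 0.106, limma). The interaction was 0.04 ± 0.45 (adjusted p = 0.983, limma).

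miR-199a-3p, which represses the kinase mTOR and the receptor Met in human liver cancer cells, had log2 levels of 15.10, 15.75, 15.83 and 15.51 in KO SCC and 15.26 and 15.51 in WT SCC. In skin it had 15.69, 15.69 and 15.18 in KO and 15.03, 15.51 and 15.75 in WT mice. The groups overlapped, and 1 of 6 tumours lay above all skin libraries and none below. The averaged difference was -0.01 ± 0.20 (adjusted p = 0.963, limma), with a 95% confidence interval of -0.44 to 0.42. A change in the pooled 3p arm as large as the fitted fall of either 5p arm lies outside that interval. Its sign depended on the scaling, since median-ratio scaling gave 0.11.

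miR-214-3p, which represses the histone methyltransferase Ezh2 in mouse muscle cells, had log2 levels of 9.72, 10.57, 11.54 and 10.33 in KO SCC and 10.24 and 10.75 in WT SCC. In skin it had 10.84, 10.92 and 11.07 in KO and 10.94, 11.20 and 10.60 in WT mice. KO SCC replicate 3 was the highest of all 12 libraries, and KO SCC replicate 1 the lowest. Of 6 tumours, 4 lay below all skin libraries, and the share of tested miRNAs for which this held was not counted. The averaged difference was -0.41 ± 0.29 (adjusted p = 0.295, limma), with a 95% confidence interval of -1.05 to 0.23, so a fall of 1 log2 unit lies within the interval. The value rested on single tumours, at -0.27 without KO SCC replicate 1 and -0.58 without KO SCC replicate 3 (adjusted p = 0.0516, limma). In KO mice it was -0.40 ± 0.37, with -0.13 and -0.74 without those same tumours.

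miR-214-5p, the less abundant arm of that hairpin, had log2 levels of 8.13, 8.68, 9.26 and 8.80 in KO SCC and 8.35 and 8.96 in WT SCC. In skin it had 9.75, 9.48 and 9.72 in KO and 9.22, 9.72 and 9.63 in WT mice. Within each genotype every tumour lay below every skin library, and across genotypes 5 of 6 tumours did. For 11.6% of tested miRNAs all 6 tumours lay below all 6 skin libraries, and the share within a genotype was not counted. It fell by 0.90 ± 0.23 on average (adjusted p = 0.00908, limma) and by 0.93 ± 0.29 in KO mice (adjusted p = 0.0319, limma). In WT mice the difference was -0.87 ± 0.35 and did not pass (adjusted p = 0.113, limma).

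**Figure D2:**
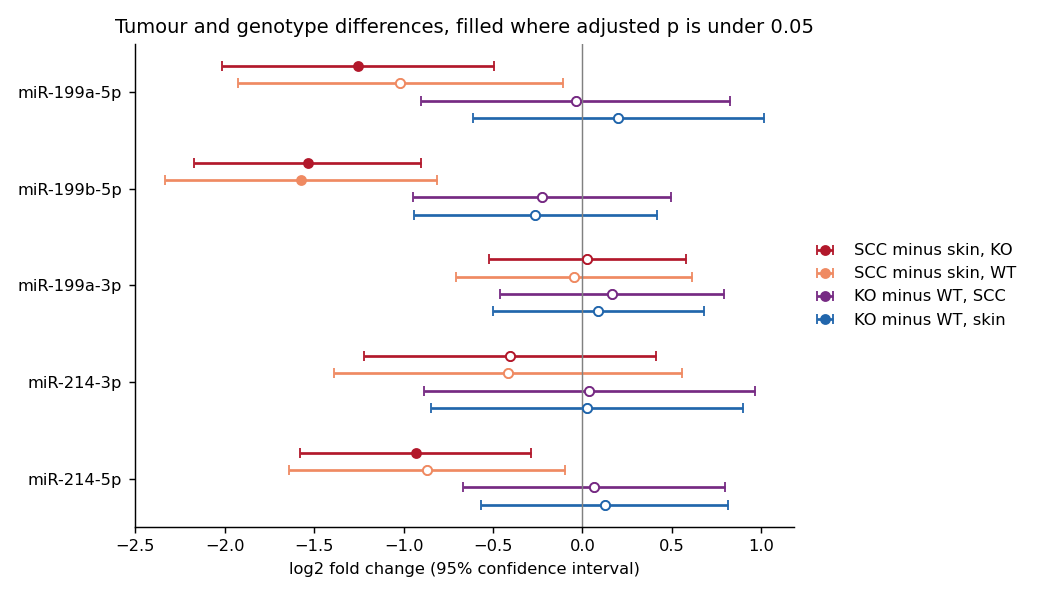
Log2 fold change (x axis) of each arm (y axis) with its 95% confidence interval from limma, for SCC minus skin in each genotype and KO minus WT in each tissue. Filled points have an adjusted p under 0.05. The tumour differences of miR-199b-5p are -1.54 in KO and -1.57 in WT mice, and every genotype difference has an interval that includes 0.

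The 5p and 3p arms were then compared within each library. The levels were already quantile normalized, so each follows the rank of its arm in the library. The part of normalization in the differences between arms was not tested. miR-199a-3p exceeded miR-199a-5p by 4.00, 3.50, 3.30 and 2.92 log2 units in KO SCC and by 3.48 and 2.98 in WT SCC. In skin the excess was 2.14, 2.42 and 1.88 in KO and 1.86, 2.24 and 2.67 in WT mice. All 6 tumours lay above all 6 skin libraries. How often the arms of other hairpins separate in this way was not counted, so the separation is not shown to be particular to miR-199a. As ratios of the deposited levels, the 3p arm averaged 10.8 times the 5p arm in KO SCC and 9.38 times in WT SCC, against 4.43 times in KO skin and 4.79 times in WT skin.

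The excess of the 3p arm was 1.13 log2 units larger in SCC, as the mean of the differences in KO (1.29) and WT mice (0.97). An exact two-sided permutation test within genotypes gave p = 0.00286, the smallest its 350 arrangements can give, and an adjusted p of 0.0171 over 6 such tests. With 1 library fewer the difference was 1.0 to 1.25. The adjusted p of this permutation test was then 0.06 without KO SCC replicate 2, 3 or 4, and 0.0857 without WT SCC replicate 1. Leaving out a library also leaves fewer arrangements, so the smallest p the test can give is larger. A larger p in these fits therefore need not mean a smaller difference. Since the 3p row pools the mir-199a and mir-199b hairpins, it was also set against the sum of miR-199a-5p and miR-199b-5p, an alternative chosen after seeing the data. The difference between SCC and skin was then 1.17, again with an adjusted p of 0.0171 in the exact permutation test.

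Setting the 5p arms against each other, the log2 difference of miR-199b-5p minus miR-199a-5p was -3.73 to -2.97 in SCC and -3.26 to -2.52 in skin. The difference between the tissues was -0.42 (exact permutation p = 0.0229, adjusted p = 0.0686 over the 6 tests), so the larger fall of miR-199b-5p did not pass. In WT skin it was -2.63, -2.52 and -2.88, closer to 0 than in every other library. The difference between KO and WT mice in this measure was -0.33 (exact permutation p = 0.0767, adjusted p = 0.153 over the 6 tests). Without KO SCC replicate 1 the adjusted p of the permutation test was 0.03 for both the tissue (-0.49) and the genotype (-0.40) comparison.

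The log2 difference of miR-214-3p minus miR-199a-3p was -5.39 to -4.29 in SCC and -5.15 to -4.09 in skin. The ranges overlapped, and the difference of -0.40 did not pass (exact permutation p = 0.151, adjusted p = 0.227 over the 6 tests). Among the tumours KO SCC replicate 3 was closest to 0.

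**Figure D3:**
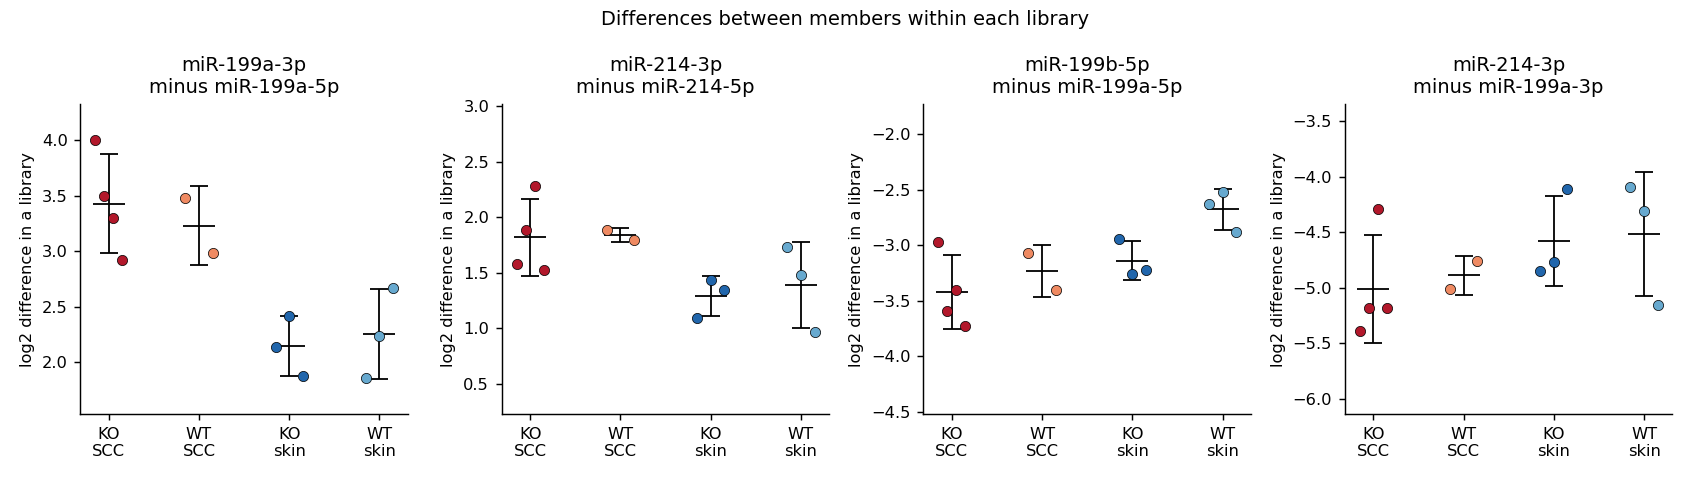
Difference of 2 arms within each library (y axis, log2 units; every panel spans the same range) in the 4 groups (x axis), with the group mean and SD as bars. In the first panel the tumours lie between 2.92 and 4.00 and the skin libraries between 1.86 and 2.67.

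No member differed between KO and WT mice beyond the test's threshold, in skin or in SCC. In skin, 0.0% of 544 miRNAs passed between KO and WT mice at an adjusted p under 0.05 with limma, and 31 had an unadjusted p under 0.05. With library quality weights 22 miRNAs passed there. In SCC 0.184% passed, which is miR-20b-5p, named after its value was seen (-1.36 ± 0.19, adjusted p = 0.0107, limma), and no member, while 46 had an unadjusted p under 0.05. Without WT SCC replicate 2, 10 miRNAs passed at an adjusted p under 0.05 in SCC. For the interaction 0.0% passed with limma, 41 had an unadjusted p under 0.05, and 10 passed without WT SCC replicate 2. KO minus WT differences of the members in skin were 0.20 for miR-199a-5p (95% confidence interval -0.61 to 1.01), -0.26 for miR-199b-5p (-0.94 to 0.42), 0.09 for miR-199a-3p (-0.50 to 0.68) and 0.03 for miR-214-3p (-0.85 to 0.90).

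In SCC the KO minus WT differences were -0.04 for miR-199a-5p (95% confidence interval -0.90 to 0.82), -0.23 for miR-199b-5p (-0.95 to 0.50), 0.16 for miR-199a-3p (-0.46 to 0.79) and 0.04 for miR-214-3p (-0.89 to 0.96). Genotype differences within these intervals are compatible with the data, and the smallest detectable difference was not computed. For miR-199a-5p the order of the group means was 13.37 in KO skin, 13.17 in WT skin, 12.15 in WT SCC and 12.12 in KO SCC, and no test between neighbours of the same tissue passed. For miR-199b-5p the means were 10.50 ± 0.28 in WT skin, 10.23 ± 0.32 in KO skin, 8.92 ± 0.29 in WT SCC and 8.70 ± 0.42 in KO SCC (SD, n = 3, 3, 2 and 4). For miR-214-3p they were 10.94 ± 0.12 in KO skin, 10.92 ± 0.30 in WT skin, 10.54 ± 0.76 in KO SCC and 10.50 ± 0.36 in WT SCC. For miR-199a-3p all 4 lay together, at 15.55 ± 0.33 in KO SCC, 15.52 ± 0.29 in KO skin, 15.43 ± 0.36 in WT skin and 15.38 ± 0.18 in WT SCC.

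KO SCC replicate 1 had the lowest level of all 12 libraries for miR-199a-5p, miR-199b-5p, miR-214-3p and miR-214-5p, and the lowest tumour level for miR-199a-3p. It lay below the KO SCC mean by 1.01 for miR-199a-5p, 0.82 for miR-214-3p, 0.58 for miR-214-5p, 0.56 for miR-199b-5p and 0.44 for miR-199a-3p. KO SCC replicate 3 lay above that mean for all 5, by 0.28 to 1.0. KO SCC replicates 2 and 4 had arms on both sides of it. In WT SCC, replicate 1 was the lower of the 2 libraries for all 5.

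Summed over 10 miRNAs used as signs of stroma, KO SCC replicate 1 had the lowest log2 level of any library, 17.24. The other KO tumours had 17.39 to 18.60. KO SCC replicate 4 had the next lowest sum of any library, 17.39, but the highest tumour level of miR-199a-5p, 12.59. The stromal sum overlapped between SCC and skin, with 17.24 to 18.60 in SCC and 17.44 to 19.31 in skin. In WT mice it was 17.75 and 17.88 in SCC and 17.70, 17.44 and 18.33 in skin. In KO mice it was 17.24, 18.60, 18.54 and 17.39 in SCC and 19.31, 19.3 and 18.56 in skin. The part of stroma in the levels of the members was not tested. Bulk tissue was measured, so fewer cells of a type and less RNA per cell cannot be told apart.

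Other miRNAs with profiles close to each member were found among 212 miRNAs in the upper 40% of those tested by mean level. Closeness was the root mean square difference of the log2 levels over the 12 libraries, each miRNA minus its own mean. The same libraries gave the tests between SCC and skin. How the close miRNAs differ there therefore follows largely from their selection and is a description only. For miR-199a-5p the closest were miR-127-3p (0.287), miR-411-5p (0.298), miR-574-3p (0.307), miR-409-3p (0.333) and miR-300-3p (0.335). All but miR-574-3p are from the imprinted Dlk1-Dio3 cluster on chromosome 12. The tumour differences of these 4, averaged over the genotypes, were between -1.53 and -1.04. The share of that cluster among the 212 candidates was not counted, so no particular link of the members to it is shown.

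For miR-199b-5p the closest were miR-136-3p (0.302), also from Dlk1-Dio3, then miR-145a-3p (0.342), miR-152-3p (0.346), miR-574-3p (0.353) and miR-195a-5p (0.384). Within the family, miR-199a-5p was 0.256 from miR-214-5p and 0.351 from miR-199b-5p, but 0.666 from miR-199a-3p. The profile of miR-199a-5p was thus closer to several miRNAs of other hairpins than to the 3p arm of its own.

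For miR-199a-3p the closest were miR-22-3p (0.187), miR-28a-5p and miR-28c (0.255 each, with identical values), miR-16-5p (0.264) and let-7f-5p (0.284). None of these 5 passed the test between SCC and skin, which follows largely from picking them by closeness to miR-199a-3p. For miR-214-3p the closest was miR-151-5p (0.321), followed by let-7a-1-3p and let-7c-2-3p (0.379 each, with identical values), miR-674-3p (0.395) and let-7e-5p (0.430). Of these, miR-674-3p passed the test and was lower in SCC, by 0.72 ± 0.18 on the log2 scale (adjusted p = 0.00908, limma).

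**Figure D4:**
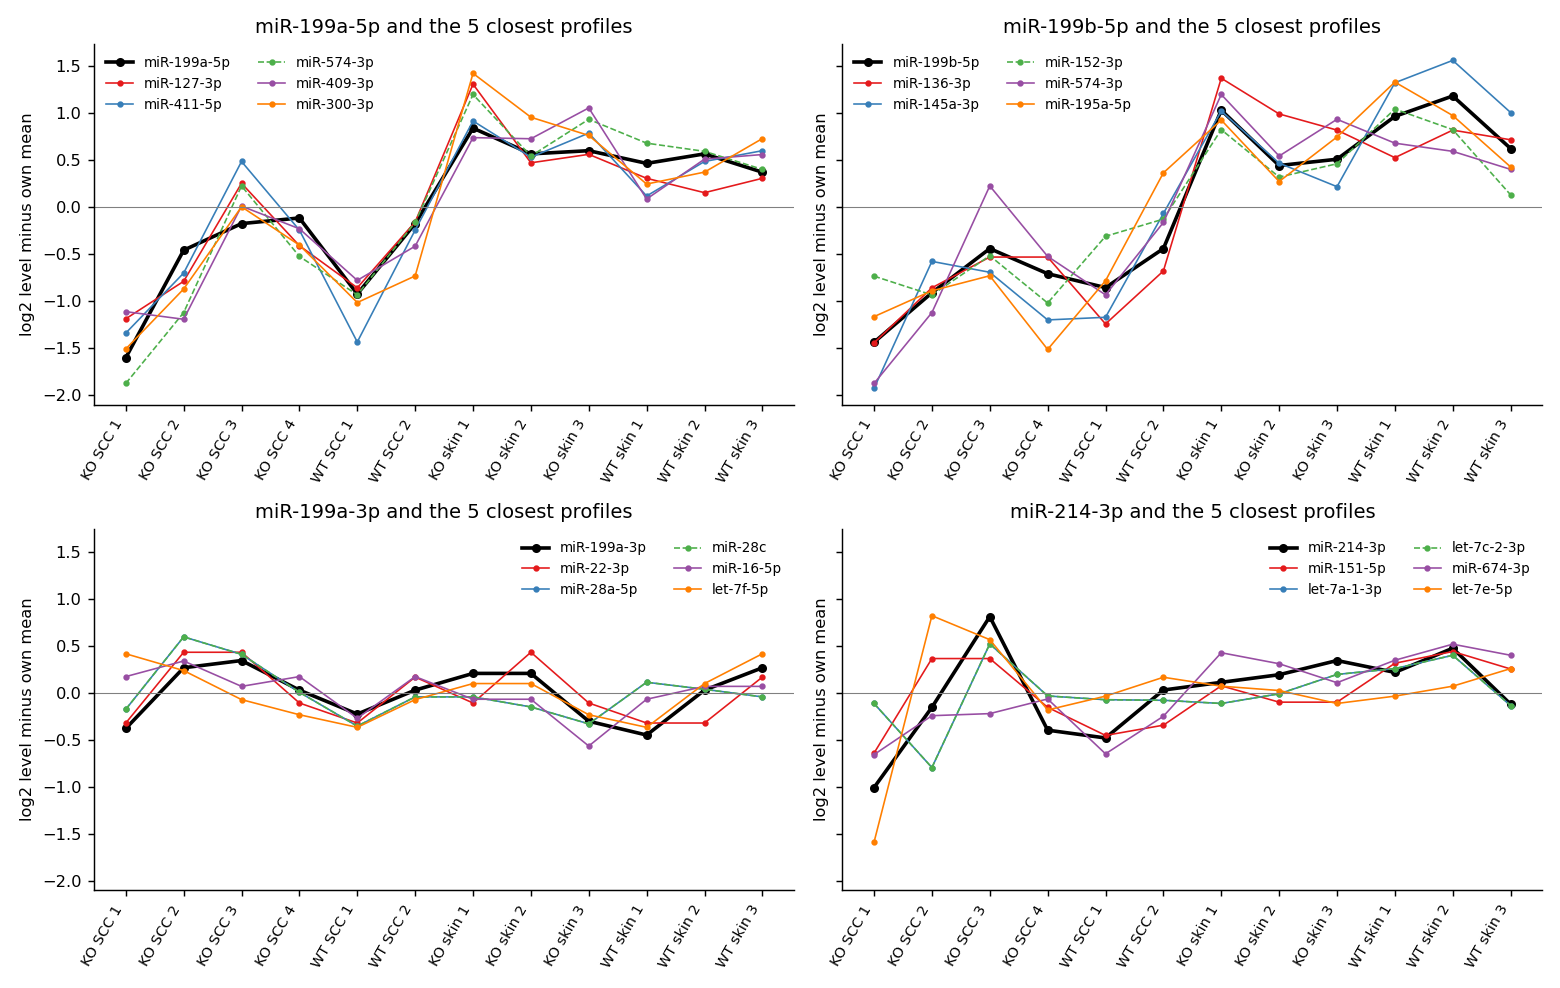
Log2 level minus the miRNA's own mean (y axis) in each library (x axis) for each member (thick black) and its 5 closest miRNAs (coloured). Lines only join the points of 1 miRNA. The closest miRNAs were picked on these same libraries, so their likeness to the member follows from the selection. miR-199a-5p and its neighbours lie mostly below 0 in SCC and above it in skin, while miR-199a-3p and its neighbours stay within about 0.6 of their means.

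Beside the members, lists of miRNAs used as signs of stroma and of other cell types were described, with no test of a list. Of 10 stromal miRNAs, 2 fell and none rose in SCC on average, with a median of -0.54 against 0.04 over all tested miRNAs, of which 21.5% fell. That share is close to the 2 of 10. By genotype, 3 of the 10 fell in KO mice (median -0.86) and 1 in WT mice (median -0.15). Of all tested miRNAs, 18.2% fell in KO and 9.38% in WT mice. The difference between the genotypes was not tested over the list. The 2 that fell on average were miR-145a-3p from the smooth muscle cluster (-1.79 ± 0.30) and miR-152-3p (-1.11 ± 0.21). The other arm of the miR-145a hairpin, miR-145a-5p, was at -0.47 ± 0.23 and did not pass (adjusted p = 0.127, limma), and neither did the collagen-repressing miR-29c-3p (-0.72 ± 0.34, adjusted p = 0.124, limma). The 4 members had a median of -0.77.

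Of 5 striated muscle miRNAs, 4 fell, beside 21.5% of all tested miRNAs. Among them, miR-206-3p was at -6.20 ± 0.43 and miR-1a-3p at -4.43 ± 0.44. The log2 of the summed muscle level was 12.21 to 14.94 in SCC and 16.02 to 16.46 in skin. The fifth, miR-499-5p, was at the floor in all skin libraries and had a difference of 1.20 ± 0.55 on average that did not pass (adjusted p = 0.110, limma). In KO mice it was 1.99 and was called higher, the 1 muscle miRNA that was. Muscle also expresses miR-199 and miR-214, and the part of this loss in the fall of the 5p arms was not tested. The 4 muscle miRNAs that fell had larger fold changes than any member.

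Beside the counts that follow, 20.4% of all tested miRNAs rose and 21.5% fell. Of 7 epithelial miRNAs, the keratinocyte miRNA miR-205-5p rose by 1.55 ± 0.19 and miR-203-3p fell by 0.60 ± 0.21. The summed epithelial log2 level was 18.28 to 19.28 in SCC and 18.33 to 18.80 in skin. Of the endothelial pair, miR-126-5p rose by 0.50 ± 0.17, and the summed level was 15.87 to 16.50 in SCC and 15.53 to 15.94 in skin. Of 5 leukocyte miRNAs 4 were tested, and miR-142-3p (1.19 ± 0.30) and miR-223-3p (1.20 ± 0.33) rose, with summed levels of 13.96 to 15.91 in SCC and 14.20 to 14.65 in skin. miR-155-5p was at the floor in all libraries. Both melanocyte miRNAs fell, miR-204-5p with a log2 fold change of -3.94 ± 0.39 and miR-211-5p with one of -3.0 ± 0.68, and had summed levels of 6.47 to 10.73 in SCC and 11.18 to 12.67 in skin. The part of these cell types in the levels of the members was not tested.

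**Figure D5:**
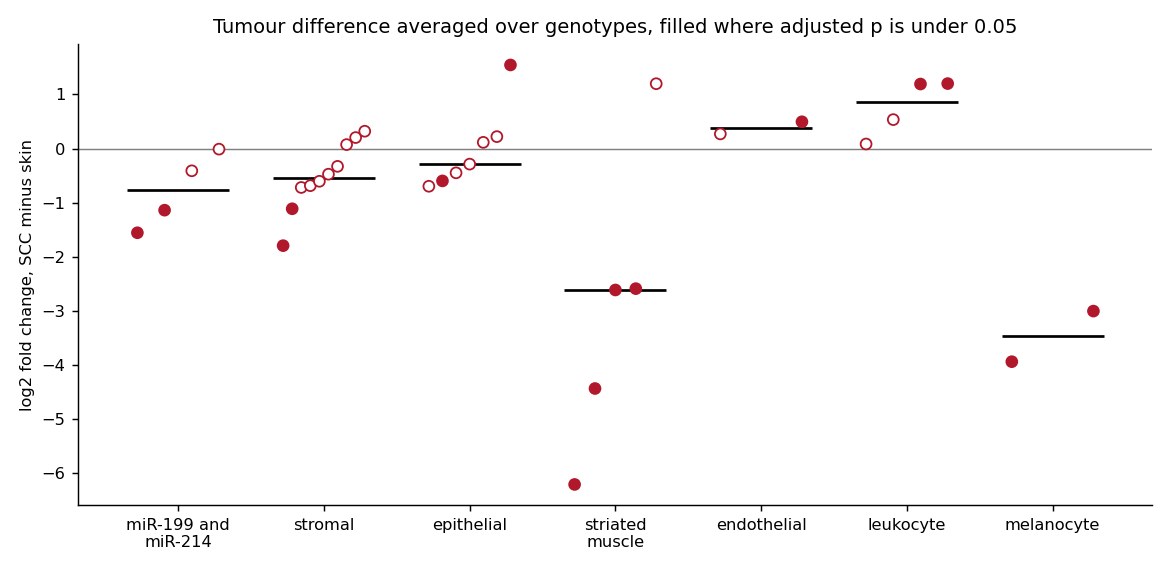
Log2 fold change, SCC minus skin averaged over genotypes (y axis), of each tested miRNA (points) in the members and in 6 marker lists (x axis). Filled points have an adjusted p under 0.05 and horizontal bars are medians, which are -0.77 for the members, -0.54 for the stromal list and -2.61 for striated muscle.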

How the data were processed

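Small RNA was sequenced from total RNA of 12 mouse skin and tumour samples. The authors deposited 1 table of log2 values for 1251 miRNAs, and each column matched 1 sample title. The submitters' processing notes name mm10. Which aligner, counter and miRBase release were used is not given in the sources used here. Judged by the values, the authors' log2 scale was quantile normalized (linear sums of 6065014 to 6065621) and floored at a linear value of 10. Such values keep no read depth, so depth is unknown and no counting interval is given.

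miRNAs exceeding the floor in 2 or more libraries, 544 in all, were fitted with limma 3.58.1 (R 4.3.3; 4 group means, trend and robust variances, 8 residual degrees of freedom), with Benjamini-Hochberg adjustment over all 544 in each contrast and a threshold of 0.05. The fit was checked on simulated data. Differences between arms within a library were compared with exact two-sided permutation tests within genotype or tissue, adjusted over 6 tests. miRNAs were named as members, other arms of their hairpins, up to 4 members of a marker list by smallest p, or the 5 closest profiles; miR-761, miR-499-5p and miR-155-5p were named for their floor values. The members and lists were chosen with earlier results of these data known. Alternatives covered the filter on low values, a pseudocount of 10, the scaling, the variance model, library weights, the groups fitted and leaving out each library.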

Additional observations from a re-analysis of the deposited data

How the results depend on the processing

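No paired analysis was possible because the labels give no replicate numbers shared between groups. The planned replicate block was therefore not run. Apart from leaving out libraries, 224 recomputed results were classed as unchanged, 9 changed sign, 4 counts moved and 1 result newly passed. A result of a member or of 2 arms was unchanged if it kept its direction and call. A count of calls was compared by its total only, not by direction. With median-ratio scaling, 115 miRNAs were higher and 105 lower in SCC on average, against 111 and 117 as reported, and this was classed as unchanged. miR-199a-3p, near 0 between SCC and skin, changed sign with median-ratio scaling (0.11 averaged, 0.10 in WT mice) and with library quality weights (0.0053 averaged, 0.020 in WT and -0.0098 in KO mice). Quality weights also gave -0.045 for miR-214-3p in KO minus WT skin and -0.030 for the interaction of miR-199a-3p. Median-ratio scaling gave interactions of -0.018 for miR-199b-5p and -0.042 for miR-214-3p. The WT difference of miR-199a-5p passed with only the WT groups fitted (-1.02, limma adjusted p = 0.0460). KO minus WT calls numbered 22 in skin with quality weights (20 higher, 2 lower; 0 as reported). In SCC they numbered 0 with the filter at 6 libraries or with only the SCC groups fitted, and 2 without trend and robust variances. The cause of these changes was not tested.

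With each library left out in turn, the fall of both miR-199 5p arms averaged over genotypes passed in all 12 fits (miR-199a-5p -1.32 to -0.95, adjusted p 0.00168 to 0.0389; miR-199b-5p -1.66 to -1.45). Averaged miR-199a-3p was -0.11 to 0.070 and miR-214-3p -0.58 to -0.27. In WT mice the calls ranged from 30 (without WT SCC replicate 1) to 116, and were 65 and 61 without WT skin replicates 1 and 2. The WT values were -1.39 to -0.64 for miR-199a-5p, -1.78 to -1.37 for miR-199b-5p, -0.25 to 0.11 for miR-199a-3p and -0.67 to -0.16 for miR-214-3p. The KO values were -1.41 to -0.92 for miR-199a-5p, -0.14 to 0.18 for miR-199a-3p and -0.74 to -0.13 for miR-214-3p. KO minus WT calls were 0 to 2 in skin (2 without KO skin replicate 3, 1 without WT skin replicate 3). In SCC they were 10 without WT SCC replicate 2, 2 without KO SCC replicate 2, and 0 without KO SCC replicate 3 or 4 or WT SCC replicate 1. Interaction calls were 0 to 10 (10 without WT SCC replicate 2, 1 without KO SCC replicate 2). In KO minus WT skin, miR-199a-5p was 0.12 to 0.25, miR-199b-5p -0.45 to -0.13, miR-199a-3p -0.11 to 0.26 and miR-214-3p -0.13 to 0.17. In KO minus WT SCC, miR-199a-5p was -0.41 to 0.34, miR-199b-5p -0.43 to -0.018, miR-199a-3p 0.036 to 0.31 and miR-214-3p -0.29 to 0.31. Interactions were -0.61 to 0.13 for miR-199a-5p, -0.17 to 0.24 for miR-199b-5p, -0.094 to 0.27 for miR-199a-3p and -0.32 to 0.29 for miR-214-3p. Within libraries, miR-199a-3p minus miR-199a-5p differed by 1.0 to 1.25 between SCC and skin and by -0.079 to 0.17 between KO and WT mice. miR-199b-5p minus miR-199a-5p differed by -0.50 to -0.33 between SCC and skin and by -0.41 to -0.24 between KO and WT mice. miR-214-3p minus miR-199a-3p differed by -0.25 to 0.013 between KO and WT mice. Quantile normalized values keep no depth, and WT SCC rests on 2 libraries.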

Other observations

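The arms of the miR-214 hairpin were compared in the same way after their values had been seen, so the result is a description with no test. miR-214-3p exceeded miR-214-5p by 1.58, 1.89, 2.28 and 1.53 log2 units in KO SCC and by 1.89 and 1.80 in WT SCC, against 1.09, 1.44 and 1.35 in KO skin and 1.73, 1.48 and 0.97 in WT skin. Within each genotype all tumours lay above all skin libraries, and across genotypes 4 of 6 did. How common such a separation is among the arms of other hairpins was not counted. The difference between SCC and skin was 0.53 in KO and 0.45 in WT mice, beside 1.29 in KO and 0.97 in WT mice for the arms of miR-199a, and the difference between these effects was not tested. The log2 difference of miR-214-3p minus miR-199a-5p was -2.26 to -0.99 in SCC and -2.71 to -2.07 in skin. Of 6 tumours, 5 lay above all skin libraries in this difference. How often other pairs of miRNAs separate in this way was not counted.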
